A study of Mus musculus with 6 samples.

Results

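The 151 genes described here encode the proteins of the cytosolic ribosome and the factors that start and extend translation on it, out of 55335 genes counted in RNA pulled down from mouse retina. They were taken by symbol: names of large and small subunit proteins (Rpl, Rps, Rplp and Rpsa), names that begin with Eef1 or Eef2, and names that begin with Eif1 to Eif6. Pseudogenes, the Eif2ak kinases and the Eif4ebp repressors were left out. They comprise 48 genes of the large subunit, 34 of the small subunit, 7 paralogs of ribosomal proteins, 13 elongation factors or enzymes that act on them, and 49 initiation factors. The large and small subunit classes include 5 genes with the names of copies (Rpl32l, Rpl6l, Rps3a2, Rps3a3 and Rps12l1), and the initiation factors include Eif2c5, an older kind of name for an Argonaute protein rather than a translation factor.

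The libraries came from C57BL/6 mice of 10 weeks whose genotype is given as wild type, 3 from naive eyes and 3 from eyes with silicone oil-induced ocular hypertension (SOHU). SOHU is a glaucoma model in which oil injected in the anterior chamber raises eye pressure, and retinas were taken 1 week after the injection. The labels repeat the note on oil injection for the naive libraries, which are grouped as naive here by their own condition label, and do not settle if those eyes had any injection. Retinas were homogenised whole, and the RNA was recovered on beads with an antibody to the HA peptide tag. The labels name the cells as retinal ganglion cells, which send their axons to the brain, but do not name the tagged protein, the promoter that drove it or how it reached the cells. Nor do they tell if replicate libraries are from different mice, so the p-values here cover the spread among these libraries alone. The source of that spread was not tested.

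Translation in the cytosol begins when initiation factors place the small ribosomal subunit, with the initiator tRNA carried by eIF2, at the capped end of an mRNA and let it scan to a start codon. The large subunit then joins, elongation factor eEF1A brings each aminoacyl-tRNA to the ribosome, and eEF2 moves the ribosome along. Most ribosomal proteins and elongation factors are made from mRNAs with a run of pyrimidines at the 5′ end, whose own translation is set by mTOR. Several factors come as paralogs: neurons and muscle of the adult use eEF1A2, encoded by Eef1a2, where most other cells use eEF1A1, encoded by Eef1a1. In such pull-downs the tag often sits on a ribosomal protein, as in RiboTag mice, where Rpl22 carries it.

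The libraries held 21691354 to 26824919 counted reads. Markers of ganglion cells took 0.717%, 0.446% and 0.523% of reads in naive 1 to 3 and 0.217%, 0.212% and 0.313% in SOHU 1 to 3, and 15 of 16 fell (median log2 fold change -1.12). Markers of Müller glia and astrocytes took 1.33%, 1.87% and 1.65% in naive and 4.93%, 3.45% and 2.74% in SOHU, and 9 of 12 rose. Of the other lists, 4 of 11 leukocyte and 3 of 7 vascular markers rose, 3 of 10 amacrine and horizontal cell markers fell, 1 of 8 bipolar markers went each way, and 0 of 10 rod and 0 of 5 erythrocyte markers passed. The part these shifts have in the results was not tested beyond the scaling to ganglion cell markers given below. In RNA from a mixture, fewer cells of a type and less RNA per cell cannot be told apart.

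Few of the translation genes differed between naive and SOHU, and most fitted changes were small. Of the 143 members with enough reads to be tested, 6 (4.2%) passed an adjusted p of 0.05 in edgeR's quasi-likelihood test, against 13.9% of all 17687 genes tested. The elongation enzyme genes Eef1akmt4 and Eef2kmt and the ribosomal protein paralog Rps27l rose, against 8.02% of all genes higher. Elongation factor gene Eef1a2 and the initiation factor genes Eif2b3 and Eif2s1 fell, against 5.93% of all genes lower. Without an adjustment 17 of the 143 members had p under 0.05, against 5506 of 17687 genes. The groups did not overlap in 37 of 143 members (25.9%), against 39.0% of all genes. The median log2 fold change was -0.01 for the members and 0.01 for all genes, with an SD over genes of 0.27 against 0.63. A change under 0.5 on the log2 scale, in either direction, was fitted for 134 of the 143 members (93.7%) and for 63.6% of all genes.

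The number of members that passed depended on single libraries: it was 0 without naive 1, without naive 3 or without SOHU 2, 2 without naive 2, 6 without SOHU 1 and 7 without SOHU 3. Over all genes the count was also 0 without naive 1 or naive 3, where 3919 and 4251 genes had an unadjusted p under 0.05. It was 336 (1.85%) without SOHU 2, 887 (4.85%) without naive 2, 2017 (11.1%) without SOHU 1 and 3896 (21.6%) without SOHU 3. Scaling the libraries to the ganglion cell markers moved the all-gene median to 1.07 on the log2 scale and called 135 of 143 members, all of them higher. In that setting 68.1% of all genes were called, 12037 higher and 2 lower. Relative to the median of all genes, the medians of the large and small subunit proteins pooled stayed between -0.04 and 0.06 and those of the initiation factors between -0.15 and -0.11 over the alternatives run, marker scaling included.

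**Figure D1:**
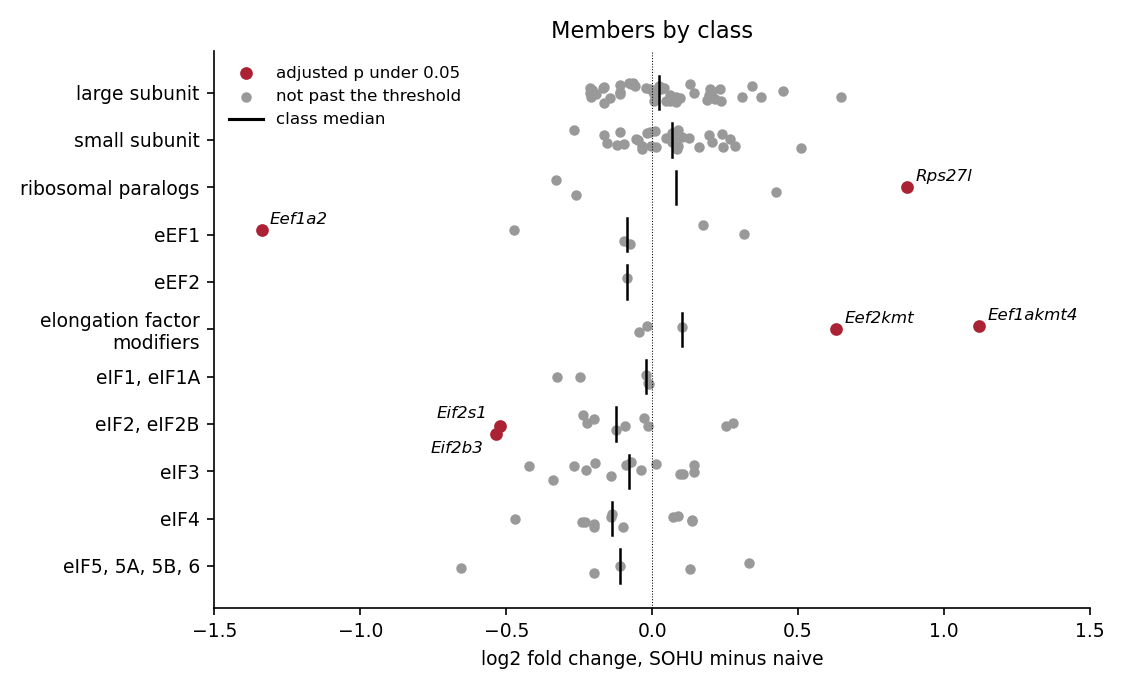
Fitted log2 fold change (x axis, SOHU minus naive, edgeR) of each tested member (points) by class; red points passed an adjusted p of 0.05, grey points did not, and short lines are class medians. Subunit proteins sit around 0, most initiation factors lie just below it, and Eef1a2 at -1.34 and Eef1akmt4 at 1.12 are the extremes.

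The genes of the ribosomal subunit proteins kept close to their naive levels in SOHU. None of the 80 tested genes of the large (47) and small (33) subunit passed in edgeR, against 13.9% of all genes. An unadjusted p under 0.05 was found for 3 of the 80, against 5506 of 17687 genes. DESeq2 called Rpl22 and Rpl30, and 21.2% of all genes. The median log2 fold change of the 80 genes was 0.03 with an SD over genes of 0.18, 48 being positive and 32 negative. The 95% interval lay within a 2-fold change in either direction for 76 of the 80 and within a 1.5-fold change for 69. Together they took 0.798%, 0.756% and 0.887% of reads in naive 1 to 3 and 0.744%, 0.848% and 0.920% in SOHU 1 to 3. The groups overlapped in this share, and the libraries within each group lay further apart than the group means of 0.814% and 0.838%.

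Subunit protein genes moved together from library to library. Naive 2 was the lowest naive library for 70 of the 80 genes and naive 3 the highest for 60. Among the SOHU libraries, SOHU 3 was the highest for 60 genes and SOHU 1 the lowest for 47. The genes share the libraries and their depth, and what sets this order was not tested.

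**Figure D2:**
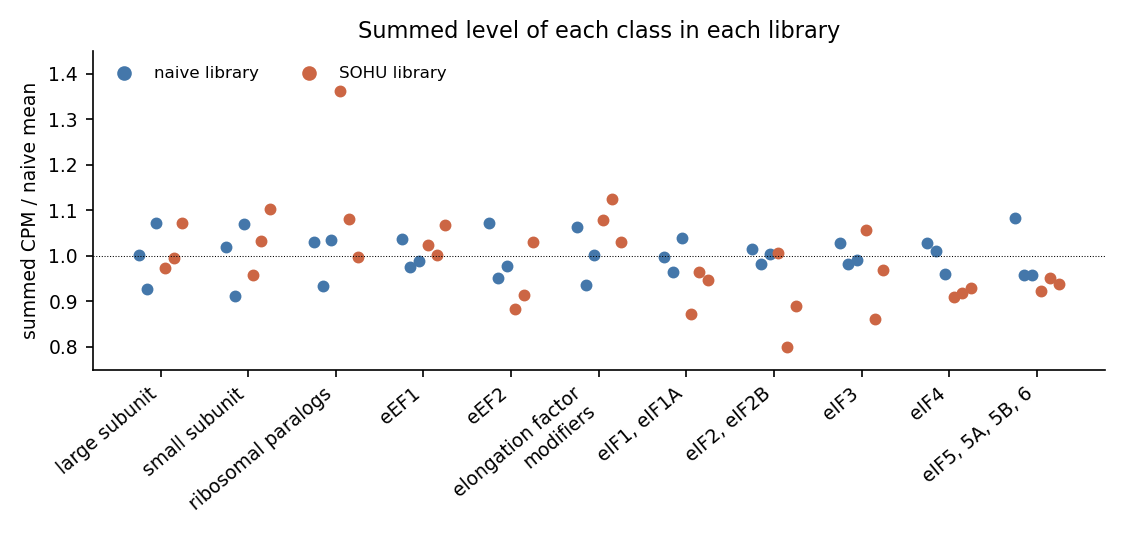
Summed CPM of each class in each naive and SOHU library (points) divided by the mean of the naive libraries, which the dotted line marks as 1; the axis does not start at 0. Large and small subunit classes overlap between the groups, whereas the eIF4 genes sum to 2515 to 2696 CPM in naive and 2382 to 2436 CPM in SOHU.

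Levels per length spanned a wide range among the subunit protein genes. This range does not measure the numbers of their proteins in the ribosome, which are equal apart from the stalk. Reads scaled to a common library size with TMM (CPM), divided by the kilobases of annotated exon, ran from 0.526 to 254.8 CPM per kb with a median of 48.6. The stalk protein gene Rplp1 (254.8 CPM per kb) and Rpl41 (218.9), which encodes the smallest ribosomal protein, led the large subunit. Rps15 (211.7) and Rps29 (194.9) led the small subunit. A total of 4 genes lay under 10% of the median: Rpl24 (0.538), Rps10 (0.526), Rps3a2 (1.27) and Rps3a3 (1.47).

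Rpl24 and Rps10, whose products are standard ribosomal proteins, had very few reads. Rpl24 had 12, 8 and 11 reads in naive and 9, 18 and 21 in SOHU, and Rps10 had 26, 21 and 25 against 28, 38 and 35. Rpl24 shares 484 exon bases on the same strand with the gene model Gm28037, and Rps10 shares 475 with the read-through model RPS10-NUDT3. The 4 pseudogenes named after Rps10 held more reads than Rps10 itself, at 276, 226 and 273 in naive and 289, 317 and 334 in SOHU. The low levels of Rpl24 and Rps10, and their fitted changes of 0.65 (Rpl24, adjusted p = 0.432) and 0.51 (Rps10, adjusted p = 0.373), are therefore uncertain. The same holds for Rpl13a (5.0 CPM per kb), which shares 621 bases with Gm45713.

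Among the large subunit genes, Rpl22, Rpl30 and Rpl7 were highest in SOHU relative to naive of those at full level. Rpl22, the protein tagged in RiboTag mice, measured 36.0, 36.9 and 38.1 CPM in naive and 47.4, 58.8 and 45.3 CPM in SOHU. All SOHU libraries lay above all naive libraries, but the difference of 0.45 (SE 0.15, adjusted p = 0.0668) missed the threshold. Rpl30 gave 49.7, 46.2 and 52.6 against 63.6, 67.8 and 61.1 CPM (0.37, adjusted p = 0.0777). Rpl7 gave 200.1, 215.8 and 232.4 against 278.4, 283.8 and 259.1 CPM (0.34, adjusted p = 0.0879). Rpl30 and Rpl7 did not overlap between the groups either; both names were added here after their values were seen.

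At the other end of the class were Rpl6 (-0.21, adjusted p = 0.294), a large subunit protein, and Rps3a2 (-0.27, adjusted p = 0.7), a copy of the small subunit gene Rps3a1 with 16 to 37 reads a library. Rpl6 measured 102.9, 101.3 and 118.4 CPM in naive and 89.3, 88.2 and 100.8 CPM in SOHU. Its highest SOHU library lay just below its lowest naive library.

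Among the paralogs of ribosomal proteins, Rps27l rose. Of 7 such genes, 4 were tested, and the other 3 had few or no reads: Rpl10l had 0, Rpl3l 2 to 7 and Rpl39l 0 to 15 per library. Rps27l, which encodes a close relative of the small subunit protein encoded by Rps27 and is a target of p53, measured 43.1, 42.6 and 56 CPM in naive and 103.2, 91.2 and 65.4 CPM in SOHU. Every SOHU library lay above every naive library, with SOHU 3 nearest to the naive range. Rps27l rose 1.83-fold, from 47.2 ± 7.61 to 86.6 ± 19.3 CPM (SD, n = 3 each), or 0.87 on the log2 scale (SE 0.19, 95% interval 0.44 to 1.30, adjusted p = 0.0212). The adjusted p of Rps27l was 0.108 without naive 1, 0.0796 without naive 2, 0.0667 without naive 3 and 0.0719 without SOHU 2.

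Rps27 itself measured 55.7, 50.3 and 74.6 CPM in naive and 74.0, 70.6 and 75.2 CPM in SOHU (0.28, adjusted p = 0.267), with naive 3 inside the SOHU range. Per kilobase of exon, the Rps27 to Rps27l ratio was 1.01, 0.924 and 1.04 in naive and 0.561, 0.606 and 0.900 in SOHU, with no overlap. Rps27l thus made up 49.7%, 52.0% and 49.0% of the reads per kilobase of the pair in naive and 64.0%, 62.3% and 52.6% in SOHU.

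The bases before the annotated starts of this pair are shown because its members gave different responses. They are the 250 bases upstream of the start in RefSeq, build GRCm38.p6, 5′ to 3′ on the strand of the gene; Rps27 is at chr3:90213649-90213898 (minus strand) and Rps27l at chr9:66945836-66946085 (plus strand). Capitals mark a match to AAGATGGC, the core bound by YY1, in Rps27 and to CCAAT, here on the opposite strand, in Rps27l.
Rps27: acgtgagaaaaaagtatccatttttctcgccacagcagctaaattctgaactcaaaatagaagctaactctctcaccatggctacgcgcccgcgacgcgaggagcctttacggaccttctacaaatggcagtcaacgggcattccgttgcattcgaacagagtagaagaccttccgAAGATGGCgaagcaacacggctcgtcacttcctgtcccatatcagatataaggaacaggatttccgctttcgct
Rps27l: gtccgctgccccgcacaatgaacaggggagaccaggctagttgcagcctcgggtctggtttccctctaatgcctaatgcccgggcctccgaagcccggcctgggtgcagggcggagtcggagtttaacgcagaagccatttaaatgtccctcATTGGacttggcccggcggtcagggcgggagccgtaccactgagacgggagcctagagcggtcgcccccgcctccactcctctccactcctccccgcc
AAGATGGC on either strand is found in 1.59% of the 27025 promoters of the same table and length, and CCAAT in 34.5%.

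The other 3 tested paralogs missed the threshold. Rpl22l1, the paralog of Rpl22, measured 34.7, 30.0 and 38.7 CPM in naive and 28.7, 26.2 and 31.4 CPM in SOHU (-0.26, adjusted p = 0.282). Its groups overlapped, but the Rpl22 to Rpl22l1 ratio per length did not: it was 0.708, 0.841 and 0.672 in naive and 1.13, 1.54 and 0.986 in SOHU. Rps4l, whose name marks it as a relative of the X-linked small subunit gene Rps4x, measured 126.8, 107.5 and 111.0 CPM in naive and 97.3, 91.6 and 85.8 CPM in SOHU, without overlap (-0.33, adjusted p = 0.111). For Rpl7l1, a relative of Rpl7, SOHU 1 stood apart at 168.8 CPM, beside 106.2 and 108.6 CPM in SOHU 2 and 3 and 92.9 to 96.4 CPM in naive (0.42, adjusted p = 0.147).

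**Figure D3:**
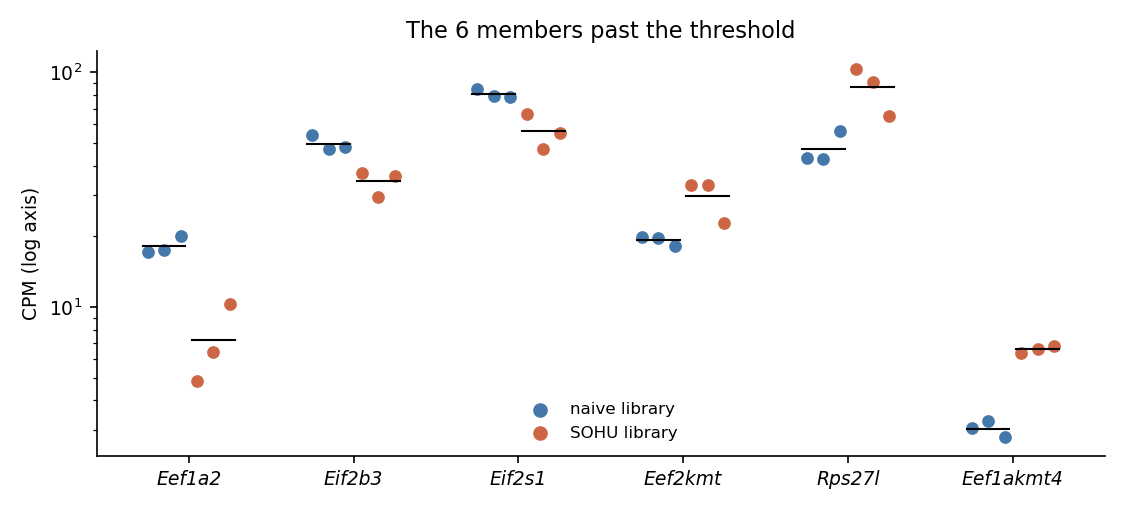
CPM (log axis) of the 6 members that passed an adjusted p of 0.05, in each library (points) with group means (lines). The groups do not overlap for any of the 6, and for Rps27l, Eef2kmt and Eef1a2 it is SOHU 3 that lies nearest to the naive libraries.

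Among the elongation factors, Eef1a2 fell while the other subunits did not pass. Eef1a2 (ENSMUSG00000016349.10, mm10 chromosome 2, 181147653 to 181157014, minus strand) had 446, 406 and 454 reads in naive and 116, 144 and 254 in SOHU. After scaling this was 17.2, 17.4 and 20.1 CPM against 4.82, 6.46 and 10.3 CPM. The SOHU values lay beneath every naive value, SOHU 1 lowest and SOHU 3 highest among them. Eef1a2 fell 2.53-fold, from 18.2 ± 1.60 to 7.20 ± 2.83 CPM (SD, n = 3 each), with a log2 fold change of -1.34 (SE 0.27, 95% interval -1.94 to -0.74, adjusted p = 0.0165). The adjusted p of Eef1a2 was 0.0781 without naive 1, 0.0747 without naive 3 and 0.0686 without SOHU 2.

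The fall of Eef1a2 was of the size of that of the ganglion cell markers, of which 2 of 16 had a lower log2 fold change. Scaled to those markers, Eef1a2 had a log2 fold change of -0.35 (adjusted p = 0.384). Markers of other neurons were lower in part. Without that scaling, the median log2 fold change was -0.71 for amacrine and horizontal cell markers (10 of 10 negative). It was -0.52 for bipolar markers (7 of 8 negative) and 0.09 for rod markers (1 of 10 negative). Muscle also uses Eef1a2. The 6 markers in the muscle list took 0.000955% to 0.00124% of reads in naive and 0.000446% to 0.000861% in SOHU. Most of these reads were from 1 gene, Acta1, which fell (297, 201 and 266 reads in naive, 106, 88 and 189 in SOHU). Ckm, the other of the 2 tested, had 14, 18 and 8 against 4, 10 and 13 reads (edgeR adjusted p = 0.575). Myh4 was at 0 in all libraries. The part of these cell types in the fall of Eef1a2 was not tested further.

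Eef1a1 (ENSMUSG00000037742.14, mm10 chromosome 9, 78478449 to 78489151, minus strand), the form used by most cells, measured 679.5, 675.8 and 676.4 CPM in naive and 804.6, 714.7 and 775.0 CPM in SOHU. The SOHU libraries lay above the naive ones by a small margin (0.18, SE 0.12, adjusted p = 0.361). Per kilobase of exon, Eef1a1 exceeded Eef1a2 by 33.1-, 32.4- and 28.2-fold in naive and by 139.6-, 92.5- and 62.8-fold in SOHU. Eef1a2 thus gave 2.93%, 3.00% and 3.43% of the reads per kilobase of the pair in naive and 0.711%, 1.07% and 1.57% in SOHU.

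The ratio was 31.2 ± 2.66 in naive and 98.3 ± 38.7 in SOHU (SD, n = 3 each), 2.99-fold higher as a geometric mean. The difference in log2 ratio of 1.58 had p = 0.1 in the two-sided exact permutation test, the smallest p that 3 libraries against 3 allow. This ratio is taken within each library and needs no scaling between libraries. It stayed between 1.29 and 1.87 when any single library was left out, and was 1.34 without naive 1 and SOHU 1 together, a setting chosen after seeing the data because their ganglion cell marker shares lie far apart. No pseudogene named after Eef1a1 or Eef1a2 with the -ps suffix is in the files, so no reads were set aside for either.

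**Figure D4:**
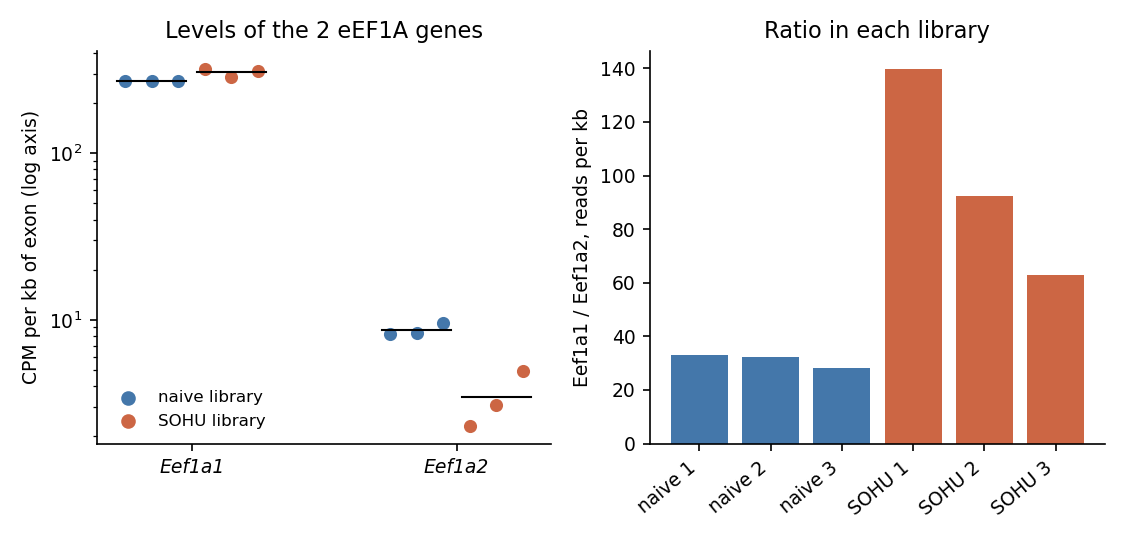
Left, CPM per kilobase of exon (log axis) of Eef1a1 and Eef1a2 in each library (points) with group means (lines); right, their ratio per kilobase in each library (bars). Eef1a1 lies between 271.1 and 322.8 CPM per kb in all libraries, Eef1a2 between 8.24 and 9.63 in naive and between 2.31 and 4.95 in SOHU, and the ratio runs from 28.2 to 33.1 in naive and from 62.8 to 139.6 in SOHU.

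The bases upstream of the starts of both eEF1A genes are shown because these paralogs went apart. They are again 250 bases from RefSeq GRCm38.p6, 5′ to 3′ on the strand of the gene. Eef1a1 is at chr9:78481725-78481974 and Eef1a2 at chr2:181157016-181157265, both on the minus strand. The Eef1a1 window precedes a RefSeq start but lies inside the gene span used for counting, whose 5′ end is further upstream. On both strands, the search was for CCGGAAG, the core bound by ETS factors, for AAGATGGC as above, for the TATA box as TATAAA, for the cAMP response element as TGACGTCA and for the CCAAT box. Neither window has a match, so neither has capitals. G and C made up 68% of the bases in Eef1a1 and 54% in Eef1a2.
Eef1a1: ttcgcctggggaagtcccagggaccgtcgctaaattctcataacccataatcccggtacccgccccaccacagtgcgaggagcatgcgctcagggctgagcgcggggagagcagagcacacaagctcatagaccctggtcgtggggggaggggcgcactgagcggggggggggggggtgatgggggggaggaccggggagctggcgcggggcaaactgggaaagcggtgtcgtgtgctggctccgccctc
Eef1a2: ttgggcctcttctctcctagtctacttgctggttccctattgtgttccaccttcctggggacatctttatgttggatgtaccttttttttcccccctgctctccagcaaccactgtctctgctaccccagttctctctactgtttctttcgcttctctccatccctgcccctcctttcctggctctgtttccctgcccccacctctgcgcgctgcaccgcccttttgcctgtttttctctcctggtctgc

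The exchange factor that reloads eEF1A with GTP is built from the products of Eef1b2, Eef1d and Eef1g. Eef1b2 measured 153.1, 127.5 and 132.5 CPM in naive and 116.9, 135.4 and 134.2 CPM in SOHU (-0.10, adjusted p = 0.659). Eef1g measured 185.5, 169.3 and 166.5 against 144.8, 167.9 and 182.3 CPM (-0.07, adjusted p = 0.737). Both overlapped between the groups. Eef1d was higher in every SOHU library, at 59.6, 59.8 and 58.2 against 73.4, 82.0 and 65.5 CPM, but did not pass (0.31, adjusted p = 0.14). It shares 277 exon bases on the same strand with Naprt, which rose (1.32, adjusted p = 0.00993), so the reads of the overlap cannot be assigned to one of them.

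Eef1e1, which despite its name encodes a scaffold of the multi-tRNA synthetase complex, measured 145.2, 115.5 and 126.4 CPM in naive and 79.3, 90.1 and 109.8 CPM in SOHU. Its groups did not overlap, and its difference of -0.47 (SE 0.16, adjusted p = 0.0717) missed the threshold in edgeR but passed in DESeq2. Eef2, the translocation factor, measured 618.7, 549.7 and 564.7 CPM in naive and 509.9, 527.6 and 594.9 CPM in SOHU, overlapping (-0.09, adjusted p = 0.688). Eef2k, the kinase that inactivates eEF2, was at 7.69 to 9.90 CPM in naive and 7.18 to 10.2 CPM in SOHU (-0.02, adjusted p = 0.966).

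Of the 6 enzymes that act on elongation factors, 2 of 5 tested rose, against 8.02% of all genes, and both are lysine methyltransferases. Eef1akmt4, which methylates eEF1A, had 79, 76 and 63 reads in naive and 153, 148 and 167 in SOHU, or 3.04, 3.27 and 2.79 CPM against 6.36, 6.64 and 6.79 CPM. The groups were far apart and narrow, and Eef1akmt4 rose from 3.03 ± 0.240 to 6.59 ± 0.219 CPM (SD, n = 3 each), which is 1.12 on the log2 scale (SE 0.22, adjusted p = 0.0155). The adjusted p of Eef1akmt4 was 0.0812 without naive 1, 0.0787 without naive 3 and 0.0528 without SOHU 2. Eef2kmt, which methylates eEF2, measured 19.9, 19.6 and 18.2 CPM in naive and 33.2, 33.2 and 22.8 CPM in SOHU, with SOHU 3 closest to naive. It rose 1.55-fold (0.63, SE 0.18, adjusted p = 0.0457) and missed the threshold when any library other than SOHU 3 was left out (adjusted p 0.0791 to 0.17).

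Both methyltransferase genes overlap a gene on the opposite strand, and strand use in counting is not stated. Eef1akmt4 also shares 495 exon bases on the same strand with the gene model Gm49333, which has 0 reads, so its level and its rise are uncertain in the same way as those of Rpl24. On the opposite strand it shares 143 exon bases with Alg3 (0.11, adjusted p = 0.737), which has 5468 reads over the 6 libraries against 686. Eef2kmt shares 472 with Alg1 (0.01, adjusted p = 0.971), with 6422 reads against 3484. The overlapped neighbours themselves did not pass. The methyltransferase genes Eef1akmt1 (-0.05, adjusted p = 0.841) and Eef1akmt2 (0.10, adjusted p = 0.651) did not pass either, and Eef1akmt3 had 0 to 8 reads a library.

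Of the initiation factors, 2 of 47 tested (4.26%) passed in edgeR, both lower, against 5.93% of all genes lower and 13.9% in either direction. Of the 47, 34 had a negative log2 fold change and the median was -0.11, beside 0.01 over all genes; with ganglion cell marker scaling the median is 0.96, where that of all genes is 1.07. Without an adjustment 6 of the 47 had p under 0.05, against 5506 of 17687 genes. Their summed level was 7883, 7540 and 7557 CPM in naive and 7196, 6990 and 7194 CPM in SOHU, without overlap. The 95% interval lay within a 2-fold change for 44 of the 47.

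The eIF2 group, which delivers the initiator tRNA, and its exchange factor eIF2B held both of the genes that fell. Eif2s1 encodes the alpha subunit of eIF2, whose phosphorylation slows initiation in the integrated stress response. It measured 84.7, 79.1 and 78.6 CPM in naive and 66.4, 47.3 and 55.0 CPM in SOHU, without overlap. Eif2s1 fell 1.44-fold (-0.52, SE 0.15, adjusted p = 0.0475). The adjusted p of Eif2s1 was 0.0753 to 0.165 when any library other than SOHU 1 was left out.

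Eif2b3 encodes the gamma subunit of eIF2B, the complex that reloads eIF2 with GTP and that phosphorylated eIF2 inhibits. It measured 53.8, 47.0 and 48.3 CPM in naive and 37.4, 29.4 and 36.2 CPM in SOHU, again without overlap. Eif2b3 fell from 49.7 ± 3.64 to 34.3 ± 4.32 CPM (SD, n = 3 each). The log2 fold change was -0.53 (SE 0.15, adjusted p = 0.0417), and its adjusted p was 0.1 to 0.163 without any single naive library and 0.115 without SOHU 2. With ganglion cell marker scaling both genes turned positive, at 0.55 for Eif2s1 (adjusted p = 0.111) and 0.54 for Eif2b3 (adjusted p = 0.132), below the shift of all genes.

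The other subunits of eIF2 and eIF2B did not pass. Eif2b2 (-0.01, adjusted p = 0.97) and Eif2b5 (-0.12, adjusted p = 0.628), the subunits with the highest levels per length of the group, both overlapped between the groups. Eif2s3x, which encodes the gamma subunit of eIF2 from the X chromosome, measured 37.7, 35.1 and 27.5 CPM in naive and 29.5, 28.6 and 27.2 CPM in SOHU (-0.24, adjusted p = 0.342). Its Y-linked copy Eif2s3y measured 8.51, 19.2 and 29.8 CPM in naive and 12.8, 25.7 and 30.0 CPM in SOHU (0.25, adjusted p = 0.741). The Y copy was detected in all 6 libraries and differed more among libraries of a group than between the groups. Eif2a, a separate factor that can also bind initiator tRNA, was higher in every SOHU library (32.5 to 38.9 CPM) than in naive (26.5 to 31.2 CPM) without passing (0.28, adjusted p = 0.228); 72 of its exon bases are shared with Serp1 on the other strand, which rose (0.94, adjusted p = 0.0281).

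Eif1, which guards start codon choice, had the highest level per length of all members (443.1 CPM per kb), at 910.6, 922.6 and 977.0 CPM in naive and 863.0, 994.0 and 910.5 CPM in SOHU (-0.02, adjusted p = 0.924). Its paralog Eif1b measured 463.4, 425.3 and 484.8 against 332.7, 346.8 and 416.7 CPM (-0.33, adjusted p = 0.136). Eif1b did not overlap between the groups, though it did not pass. The Eif1 to Eif1b ratio per length was 1.05 to 1.16 in naive and 1.17 to 1.54 in SOHU. Eif1a and its X-linked paralog Eif1ax, which help the scanning ribosome, were at -0.01 each (adjusted p = 0.952 and 0.963).

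None of the 14 subunit genes of eIF3, the scaffold on the small subunit, passed, against 13.9% of all genes. None had an unadjusted p under 0.05, against 5506 of 17687 genes. The median of the 14 was -0.08. Eif3h, at 124.6, 123.8 and 127.8 CPM in naive, was at 126.3, 80.5 and 105.4 CPM in SOHU (-0.27, adjusted p = 0.301), so that SOHU 1 lay inside the naive range and SOHU 2 far below it. Eif3g measured 189.8, 170.0 and 169.6 CPM in naive and 151.4, 146.7 and 154.5 CPM in SOHU without overlap (-0.23, adjusted p = 0.223), and Eif3c was at the top of the class (0.15, adjusted p = 0.45). Eif3j2, the rarer of the 2 copies of the loosely held j subunit, ran from 2.96 to 8.40 CPM in naive and 1.70 to 8.37 CPM in SOHU, a wider spread than the difference between the groups (-0.42, adjusted p = 0.648).

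The eIF4 factors recognise the mRNA cap and unwind its leader. None of 12 tested passed, against 13.9% of all genes, and 8 were negative (median -0.14). The helicase gene Eif4a1 measured 282.6, 290.2 and 244.8 CPM in naive and 242.6, 149.6 and 198.3 CPM in SOHU. Its groups touched without overlapping, and its difference of -0.47 (SE 0.18, adjusted p = 0.104) missed the threshold. It was -0.29 without SOHU 2 (adjusted p = 0.274) and passed without SOHU 1 (-0.65, adjusted p = 0.0315) and without a count filter (-0.50, adjusted p = 0.0245). Scaled to ganglion cell markers, Eif4a1 turned to 0.59 (adjusted p = 0.0687). The second helicase gene, Eif4a2, was at 336.9 to 410.7 CPM in naive and 296.0 to 330.0 CPM in SOHU (-0.23, adjusted p = 0.265). Eif4e, the cap-binding protein, was at 371.6, 354.4 and 330.5 against 284.7, 275.6 and 333.6 CPM (-0.24, adjusted p = 0.237), so that SOHU 3 lay within the naive range. Eif4h, which aids the helicase, gave -0.20 (adjusted p = 0.328), and the scaffold genes Eif4g1 and Eif4g2 gave 0.14 each (adjusted p = 0.512 and 0.483).

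Of the late initiation factors, Eif5a2 had the lowest fitted change of all initiation genes. It encodes the rarer form of eIF5A, the factor that carries hypusine and eases stalled ribosomes, and measured 37.2, 26.4 and 26.8 CPM in naive and 13.5, 22.4 and 21.5 CPM in SOHU. The groups did not overlap, and the difference of -0.65 (SE 0.23, adjusted p = 0.081) missed the threshold in edgeR and passed in DESeq2. Scaled to ganglion cell markers, Eif5a2 turned to 0.43 (adjusted p = 0.253), below the shift of all genes. Eif5a, the main form, was at 639.9 to 746.4 CPM in naive and 612.5 to 656.4 CPM in SOHU (-0.11, adjusted p = 0.589). Eif5b, which joins the subunits, went the other way at 51.1, 58.9 and 60.8 against 67.4, 78.4 and 69.4 CPM (0.33, adjusted p = 0.127), and shares 1643 exon bases with Rev1 on the other strand. Eif6, which keeps free large subunits apart from small ones, gave 0.13 (adjusted p = 0.552).

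Paralog ratios, taken within each library per kilobase of exon, were compared for 12 pairs, of which the pairs of Rps4x with Rps4l and Rpl7 with Rpl7l1 were added after values were seen. The groups did not overlap in 6: Eef1a1 with Eef1a2, Rps27 with Rps27l, Rpl22 with Rpl22l1, Rps4x with Rps4l, Eif5a with Eif5a2 and Eif1 with Eif1b. Taken singly, 39.0% of all genes did not overlap either. No such share was taken for ratios of other gene pairs, so the count has no direct reference. The largest difference was that of Eef1a1 and Eef1a2, 2.99-fold, followed by 1.62-fold for Rpl22 with Rpl22l1. The ratios of Eif5a to Eif5a2 were 42.5, 51.3 and 52.3 in naive and 96.2, 59.3 and 64.4 in SOHU. Those of Rps4x to Rps4l were 0.581, 0.629 and 0.601 against 0.713, 0.751 and 0.942. Ratios overlapped for Rpl7 with Rpl7l1, Eif4a1 with Eif4a2, Eif1ax with Eif1a, Eif2s3x with Eif2s3y, Eif3j1 with Eif3j2 and Eif4e with Eif4e3. Rpl39l was at 0 in 3 libraries, so that pair gave no ratio.

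**Figure D5:**
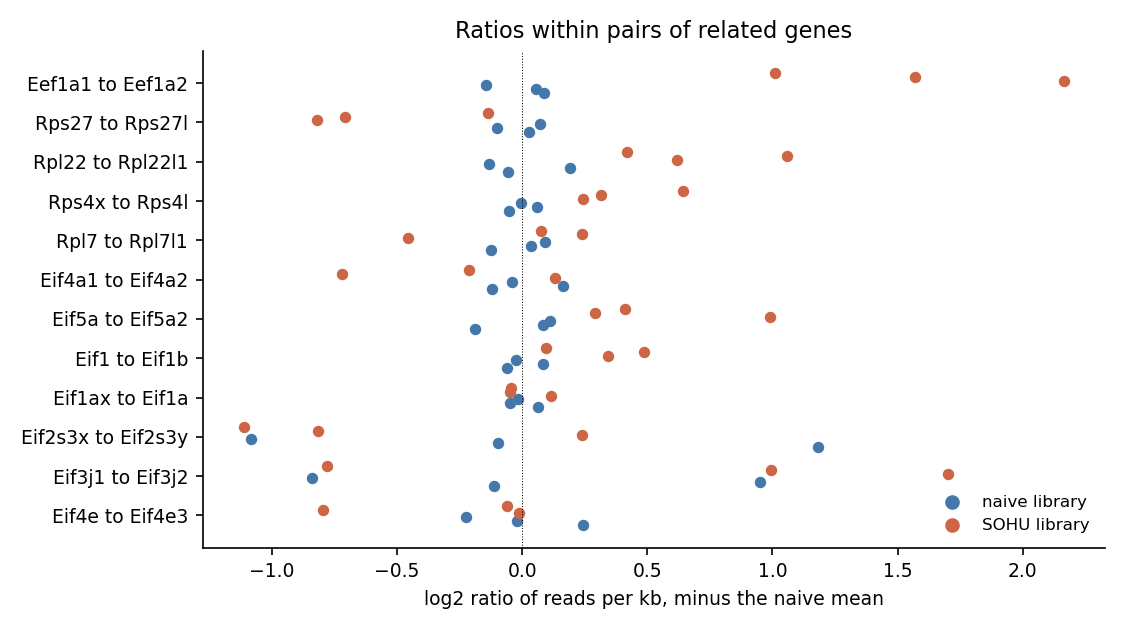
Log2 ratio of the first to the second gene of 12 pairs, per kilobase of exon, in each library (points), minus the mean of the naive libraries, which the dotted line marks as 0. The Eef1a1 to Eef1a2 pair shows the widest gap between the groups, and the pairs with Eif2s3y and Eif3j2 spread widely within each group.

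Of small subunit genes that the symbols do not catch, Fau (log2 fold change -0.24, adjusted p = 0.301) and Rack1 (0.09, adjusted p = 0.652) did not pass. Among the translation repressors and eIF2 kinases, 1 of 6 tested passed (16.7%), a share near the 13.9% of all genes. Eif4ebp1, which binds eIF4E and blocks cap-dependent initiation, measured 7.82, 10.3 and 10.1 CPM in naive and 43.0, 41.6 and 30.6 CPM in SOHU. The groups lay far apart, and Eif4ebp1 rose 4.08-fold (2.03, SE 0.19, adjusted p = 0.00762). Its paralog Eif4ebp2 overlapped between the groups (0.08, adjusted p = 0.76).

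In the list of mTOR and S6 kinase genes, 3 of 21 (14.3%) passed, a share near the 13.9% of all genes. Deptor, an inhibitor subunit of mTOR complexes, rose from 70.9 ± 3.70 to 114.2 ± 18.3 CPM (SD, n = 3 each; 0.69, adjusted p = 0.0197), and Akt1s1, another inhibitory subunit, rose from 26.2 ± 0.874 to 38.8 ± 4.68 CPM (0.57, adjusted p = 0.0332). Rps6ka2, a kinase of the RSK family, fell from 145.9 ± 13.5 to 90.4 ± 23.8 CPM (-0.69, adjusted p = 0.0441). Scaled to ganglion cell markers, Rps6ka2 turned to 0.36 (adjusted p = 0.287). Of 16 genes for termination and poly(A) binding and 12 hosts of snoRNAs, 0 passed in edgeR. At an unadjusted p under 0.05 there were 0 and 1, against 5506 of 17687 genes.

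Of 34 ribosome biogenesis genes, 2 fell (5.88%, near the 5.93% of all genes), the GTPase gene Gnl2 (-0.77, adjusted p = 0.0276) and Nop56 of the snoRNP core (-0.55, adjusted p = 0.0338); 23 were negative and the median was -0.11. Of 22 cytosolic tRNA synthetase genes, 2 fell (9.09%), Yars (-0.60, adjusted p = 0.0216) and Gars (-0.56, adjusted p = 0.0238). In that list 17 were negative, the median was -0.27, and 12 (54.5%) did not overlap between the groups, beside 39.0% of all genes. With ganglion cell marker scaling, 28 of the 34 and 17 of the 22 were called higher along with most genes, and these 4 genes turned positive without passing. Relative to all genes, the median of the synthetases with that scaling was again -0.27 and that of the biogenesis genes -0.12. Of 77 tested proteins of the mitochondrial ribosome, 0 passed in edgeR, and the median was -0.06. An unadjusted p under 0.05 was found for 5 of the 77, against 5506 of 17687 genes. Relations between the lists and the members were not tested.

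Promoters of the members were described from the same RefSeq table, which held windows for 112 of the 151. Where a gene had several windows, as 16 members did, only the first was used. Within the 250 bases before the start, the ETS core CCGGAAG was found on either strand in 18 of 58 subunit protein genes (31.0%) and 9 of 39 initiation factor genes (23.1%), against 7.05% of all promoters and 0 of 9 elongation genes. TGACGTCA, the cAMP response element, was in 5 of 58 subunit genes (8.62%) against 1.62% of all, and TATAAA in 3 of 58 (5.17%) against 13%. C and T made up 61.4% of the first 10 transcribed bases of subunit genes, against 47.2% over all genes. These are counts of letters in a window and do not show that a factor binds there.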

How the data were processed

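The deposited values are raw read counts per gene for 6 libraries, made with featureCounts and HISAT2 on mm10 per the submitters' processing notes, which also list bcl2fastq 2.17, Trim Galore and MultiQC; the sources used here give neither the strand setting nor how reads with several alignments were treated. The table of all libraries was equal to the 6 single files. Symbols came from GENCODE M21 by Ensembl identifier, with 55154 of 55335 genes matched.

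Low counts were filtered with filterByExpr (minimum count 10, minimum total 15), which kept 17687 genes, and counts were scaled by TMM (factors 0.943 to 1.039). The quasi-likelihood test of edgeR 4.0.16 (R 4.3.3) had group as its only term, and p-values were adjusted by Benjamini-Hochberg over all tested genes. CPM are TMM-scaled counts per common library size, and intervals are 95%. The biological coefficient of variation was 22.3%. On simulated data of the SOHU and naive comparison with 17327 genes, the edgeR test called 8% of genes at a true 1.5-fold change, 48% at 2-fold and 79.6% at 3-fold, and 5 of 111 calls were false. Only 50, 50, 49 and 49 of those genes were given changes of 1.5-, 2-, 3- and 4-fold. That is a far smaller share than the 13.9% of genes called in the data, so these rates do not carry over to them directly.

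The members and lists were chosen with earlier results of these data known, so lists are described by counts and medians with no test. Named members are those that passed, the elongation factors, the 2 highest per length and both extremes of each class, fixed paralog pairs and members near the count filter; in each list, up to 4 genes that passed. Other members named were added after their values were seen. The alternatives were RLE scaling, library size alone, scaling to ganglion cell markers, no filter, DESeq2 1.42.0, limma-voom (limma 3.58.1), a replicate block and leaving out each library. Replicates of a group differed by more than counting noise (chi-square per degree of freedom 12.6 to 79.0).

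Of the members, 24 share exon bases with a gene that has at least 10% of their reads. A total of 303 pseudogenes are named after 63 members. Their reads were 1.23% of those of all members pooled, but for Rps10 they exceeded those of the gene itself. Reads from close copies cannot be assigned with certainty. Protein sequences were not analysed here.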

Additional observations from a re-analysis of the deposited data

How the results depend on the processing

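The 6 members called became 10 in DESeq2 (with Eef1e1, Eif5a2, Rpl22 and Rpl30 added), 9 without a count filter and 5 in limma-voom, while RLE scaling and library size alone kept the same 6. Leaving out 1 library gave 0 to 7, where 0 to 21.6% of all genes were called. Leaving out naive 1 and SOHU 1 together, chosen after seeing the data, gave 0, with 1.48% of all genes called. In that setting 13 members had an unadjusted p under 0.05, against 4209 of 17949 genes. Some of these settings hold fewer samples; otherwise the cause was not tested. With the replicate number as a block 3 were called (Eef1a2, Eef1akmt4 and Rps27l), and 11.7% of all genes. The log2 ratio difference of Eef1a1 and Eef1a2 stayed 1.58, with an exact p of 0.25 from sign changes of the paired differences. That is the smallest p that 3 pairs allow, so this test could not give a lower one. Whether the numbers pair the libraries is not settled. Naive and SOHU deviations correlated at 0.163, 0.251 and 0.00399 for numbers 1 to 3, and at -0.280 to 0.0946 for libraries of different numbers. Libraries numbered 1 and 2 thus correlated best with their own number. Naive 3 correlated better with SOHU 2 (0.0946), and SOHU 3 with naive 1 (0.0761).

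Scaling to ganglion cell markers called 135 members, all higher, and 68.1% of all genes, with the median of all genes at 1.07 in place of 0.01. The medians became 1.18 for elongation enzymes, 0.98 for eEF1, 0.97 for eEF2, 1.16 for ribosomal paralogs, 1.09 for the large subunit, 1.12 for the small subunit, 1.04 for eIF1, 0.96 for eIF2, 1.00 for eIF3, 0.91 for eIF4 and 0.96 for eIF5 and eIF6. They were 1.09 for subunit proteins and for all ribosomal genes, 0.96 for initiation, 1.04 for elongation and 1.06 for all members. The following log2 fold changes turned from negative to positive with that scaling, by its own construction: Eef1akmt1 1.04, Eef1b2 0.98, Eef1g 0.98, Eef2 0.97, Eef2k 1.05, Eif1 1.04, Eif1a 1.05, Eif1ax 1.07, Eif1b 0.72, Eif2b2 1.08, Eif2b3 0.54, Eif2b5 0.96, Eif2s1 0.55, Eif2s3x 0.84, Eif3g 0.85, Eif3h 0.80, Eif3j2 0.54, Eif4a1 0.59, Eif4a2 0.85, Eif4e 0.81, Eif4h 0.87, Eif5a 0.96, Eif5a2 0.43, Rpl22l1 0.80, Rpl6 0.84, Rplp1 0.91, Rps3a2 0.86 and Rps4l 0.76. In the other settings, the 16 class medians moved by less than the SD of their genes (for eEF2, 1 gene, by less than its standard error). Low depth limits Rpl24, Rps3a2 and Rps10.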

Other observations

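Eif2s3y and the other Y-linked genes Ddx3y, Uty and Kdm5d were detected in all 6 libraries together with Xist, the X-inactivation RNA of female cells. Xist measured 6.31, 14.7 and 5.70 CPM in naive and 20.1, 43.5 and 11.7 CPM in SOHU. Ddx3y measured 15.3, 29.6 and 37.1 CPM in naive and 24.6, 47.4 and 41.7 CPM in SOHU. No library was free of either. The labels do not state the sex of the mice or whether retinas were pooled.

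The eIF2 kinase gene Eif2ak2, which encodes PKR and is induced by interferon, varied most among the naive libraries, at 11.2, 45.8 and 20.6 CPM in naive 1 to 3 and 34.3, 50.4 and 42.1 CPM in SOHU (log2 fold change 0.71, edgeR adjusted p = 0.327). Naive 2 lay within the SOHU range.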
